A study of Homo sapiens with 4 samples.

Results

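Peaks of YAP and TEAD1 were examined around 6 genes that encode transcription factors of the ETS family: ETS1, ETS2, ELF3, EHF, ELK3 and ETV6. A peak was counted for a gene when its centre lay in the gene body or within 50 kb of it (human genome build hg19). By this rule the 6 windows, 1120 kb in all, held 35 of the 48962 TEAD1 peaks, 3 of the 10118 peaks of the YAP antibody named Avruch and 1 of the 2471 peaks of the YAP antibody from Santa Cruz. The genes were chosen from these same peak lists, with the TEAD1 scores and positions known, above all a TEAD1 peak of very high score inside ETS1. Their counts and scores are therefore given as a description, without a test.

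The peaks come from chromatin immunoprecipitation followed by sequencing (ChIP-seq) in the human cell line H69, with 1 library per antibody. The labels of this line give neither a tissue nor a treatment, and peak lists do not measure expression, so its cell type was not checked against markers. The TEAD antibody is named TEAD1 in the series' design text. An IgG library was also made, and it was not analysed here. The number of reads behind each list is unknown, and no peak has a replicate.

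ETS factors share the ETS domain, which binds DNA with the core GGAA. TEAD1 belongs to another family, whose core motif GGAATG contains that same run of letters. YAP does not bind DNA itself and is held at enhancers by TEAD proteins when the Hippo kinases are inactive. Among the 6 genes, ETS1 and ETS2 are close paralogues whose products are activated by RAS and MAP kinase signalling. ELF3 and EHF belong to the epithelial branch of the family. ELK3 is a ternary complex factor that works with serum response factor, and ETV6 is a repressor known from leukaemia fusions.

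The windows held 3.125 TEAD1 peaks per 100 kb, against 1.62 per 100 kb over the placed chromosomes, a span that includes long stretches without peaks. Gene bodies held 16 of the 35 peaks (3.08 per 100 kb), upstream flanks held 9 and downstream flanks 10 (flanks together 3.17 per 100 kb). The score of a peak is the authors' value, has no stated unit and is used here only to rank peaks within a list. The 35 peaks had a median score of 65.8, where the whole TEAD1 list had 67.1, and 17 of them lay above the list's median. Their median width was 276 bp (197 to 596), where the list had 274 bp. By gene, ELF3 (8.26 per 100 kb), ELK3 (4.55), ETS1 (3.51) and ETS2 (2.50) lay above the figure of the chromosomes, and ETV6 (1.45) and EHF (1.41) lay below it. The typical peak ranked near the middle of its list.

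**Figure D1:**
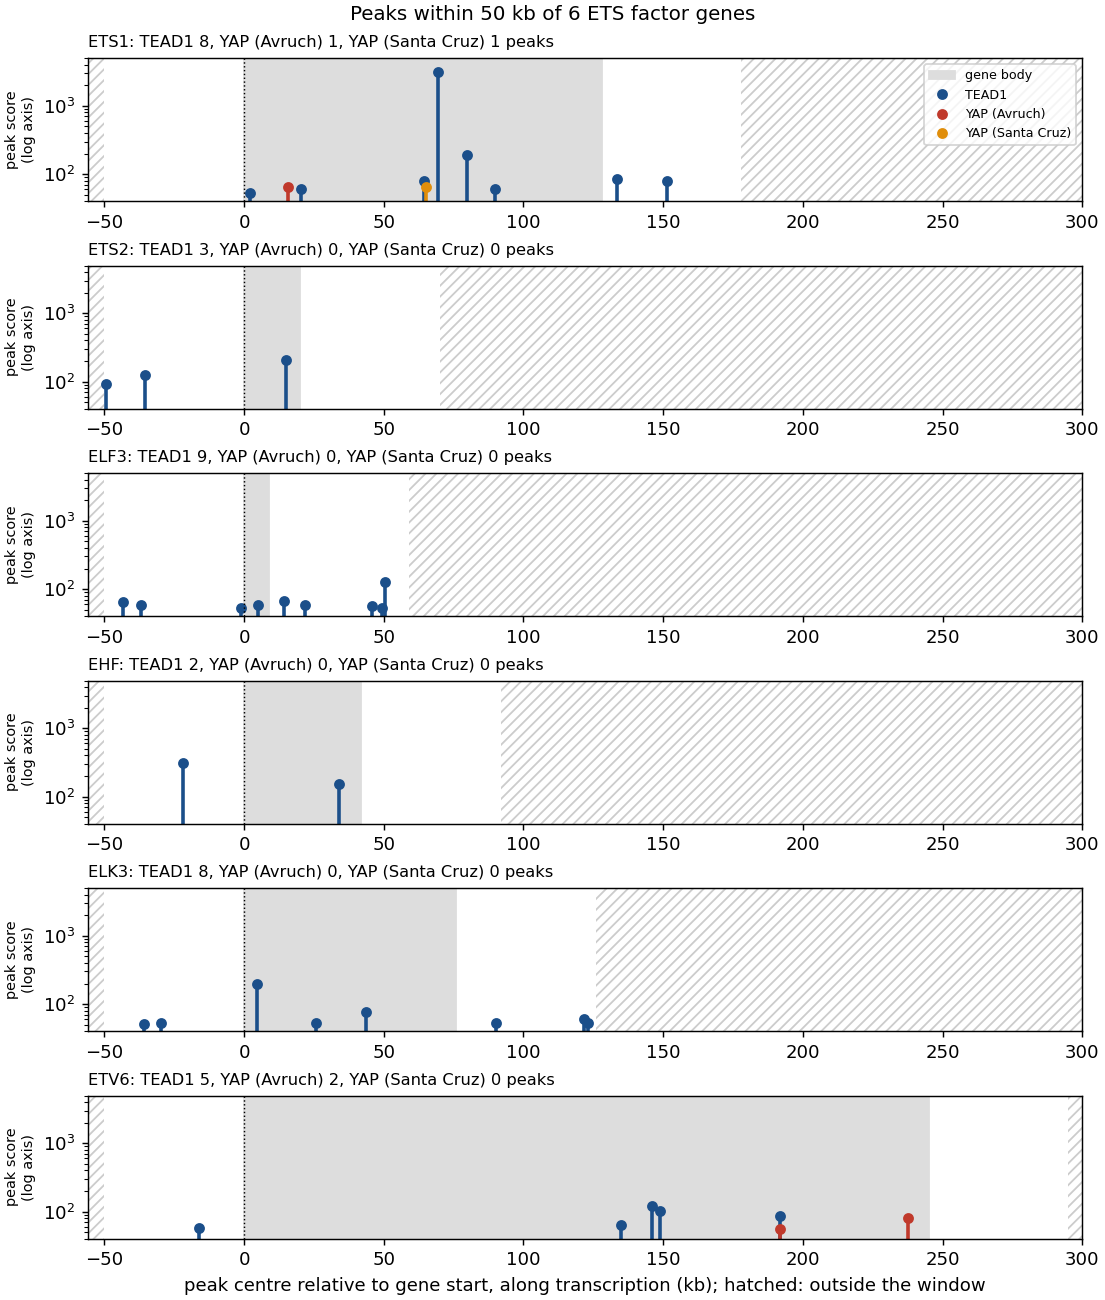
Peaks of the 3 lists in the windows of the 6 genes. Each stem is a peak, placed by its centre in kb from the gene's start along transcription, with its score on a log axis; gene bodies are grey. The ETS1 site with a score of 3133.14 stands far above the other 34 TEAD1 peaks, and YAP peaks appear at ETS1 and ETV6 alone among these windows.

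ETS1 held the site that gave the set its name. ETS1 (hg19, chromosome 11, gene body 128329 to 128457 kb, minus strand) had 8 TEAD1 peaks in its window of 228 kb, 6 in the gene body, 2 past its end and 0 before its start. The strongest, at chr11:128387447-128388042, was 596 bp wide and lay 69.3 kb downstream of the gene's start, inside the gene body. Its score of 3133.14 was the third highest of all 48962 TEAD1 peaks. Among TEAD1 peaks under 1 kb wide on placed chromosomes it ranked 2, after a peak on chromosome 9 (114792172 to 114792828, score 3139.81). Just below it in the whole list, 22 TEAD1 peaks tied at a score of exactly 3100. Why they share this value is unknown, so the ranks by score may not set the ETS1 site apart from them. By width the ETS1 site ranked 2259. Whether it falls in an exon or an intron was not analysed here.

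The other 7 ETS1 peaks ranked far lower. The next strongest, 79.9 kb from the start (chr11:128376841-128377285), scored 192.23 and belonged with the strongest site to the upper 10% of the list. Further along, peaks at 133.4 kb and 151.2 kb from the start, past the gene's end, scored 85.19 and 79.97. Close to the strongest site, the peak at 64.4 kb scored 80.06. The remaining peaks, at 89.9, 20.5 and 2.2 kb from the start, scored 61.42, 61.49 and 53.15, all under the list's median. The peak nearest the start used here, the upper end of the gene body, was thus the weakest of the 8. Other transcript starts inside ETS1 were not analysed here. Upstream of ETS1 the nearest TEAD1 peak lay 122.5 kb from the gene (score 175.88), outside the window. In RefSeq gene order the next protein-coding gene on that side is FLI1, a further ETS factor.

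The strongest ETS1 site overlapped no YAP peak of either antibody. The nearest YAP peak was a Santa Cruz peak 3.75 kb away (chr11:128391795-128391943, 149 bp wide, score 65.22, rank 829 of 2471). It lay between the strongest site and the TEAD1 peak at 64.4 kb, and came within 455 bp of the latter without touching it. The nearest Avruch peak was 53.3 kb from the strongest site (chr11:128441361-128441476, 116 bp wide, score 64.22, rank 4885 of 10118), and 4.69 kb from the closest TEAD1 peak. The YAP antibodies thus each gave 1 peak inside ETS1, at places 49.4 kb apart. Of all TEAD1 peaks, 10.1% lay no farther than this site from a YAP peak. A lack of overlap was the rule in the whole list, where 3.59% of TEAD1 peaks overlapped a YAP peak. It was also the rule among strong sites. Of 157 narrow TEAD1 peaks with a score of at least 1000 on placed chromosomes, 2 overlapped a YAP peak (1.27%). That limit was set after the values were seen, and the share depends on it. The 2 overlapping peaks, on chromosomes 14 and 10, were among the 10 narrow peaks of highest score, as was the ETS1 site.

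ETS2, the paralogue of ETS1, had 3 TEAD1 peaks and no YAP peak. Its gene body (chromosome 21, 40177 to 40197 kb, plus strand) held the strongest, at chr21:40191809-40192197, 15.0 kb from the start, with a score of 210.07 and rank 3407. The other peaks lay upstream, at -35.6 kb (score 124.86) and -49.3 kb (score 93.13). All 3 ranked in the upper 25% of the TEAD1 list or at its edge, at percentiles 93.0, 85.0 and 75.0. The farthest upstream peak was just inside the window, by 0.7 kb, and the nearest TEAD1 peak outside it lay 70.7 kb from the gene, with a score of 51.15. The nearest Avruch peak was 99.3 kb from the gene and the nearest Santa Cruz peak 1553.7 kb. The gene before ETS2 in RefSeq order is ERG, also an ETS factor.

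ELF3, an epithelial ETS factor, had the densest window. It held 9 TEAD1 peaks in 109 kb (8.26 per 100 kb) around a gene body of only 9 kb (chromosome 1, 201977 to 201986 kb, plus strand). Of these, 3 lay upstream, 1 in the gene body and 5 downstream. The peaks were weak for their list: 7 of 9 scored under its median and the median percentile was 30.8. The strongest, at chr1:202027106-202027423, lay 50.3 kb from the start and scored 128.62. The others scored between 52.29 and 67.30. The neighbours RNPEP and GPR37L1 flank ELF3 in RefSeq order, and no peak was assigned to any of these genes over another.

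ELF3 also had the TEAD1 peak closest to a gene's start among the 6 genes. It lay about 1.0 kb upstream (chr1:201975926-201976172, score 52.91, rank 44978), near the bottom of the list, and a further peak lay 4.9 kb downstream of the start (score 57.96). Starts are known here to the nearest kb. ELK3 had a TEAD1 peak 4.8 kb past its start, ETS1 one at 2.2 kb, and the remaining genes had none within 5 kb. For the 2 genes of this group with a RefSeq promoter entry, the 250 bases before a RefSeq start are shown. These RefSeq starts were not matched to the hg19 starts used for the distances above, and may differ from them. The sequences come from build GRCh38.p14, plus strand, at chr1:202010337-202010586 for ELF3 and chr12:96194125-96194374 for ELK3. The latter is the first of its 2 entries. Capitals mark matches to GGAA on either strand.
ELF3: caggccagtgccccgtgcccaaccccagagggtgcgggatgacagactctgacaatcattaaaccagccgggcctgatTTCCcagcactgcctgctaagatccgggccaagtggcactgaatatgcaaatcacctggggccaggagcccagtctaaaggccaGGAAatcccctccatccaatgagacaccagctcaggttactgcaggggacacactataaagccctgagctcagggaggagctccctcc
ELK3: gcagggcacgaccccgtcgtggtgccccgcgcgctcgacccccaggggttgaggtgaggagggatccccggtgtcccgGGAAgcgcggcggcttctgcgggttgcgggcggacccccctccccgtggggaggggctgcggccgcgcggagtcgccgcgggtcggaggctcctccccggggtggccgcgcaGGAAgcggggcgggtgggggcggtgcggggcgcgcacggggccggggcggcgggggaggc

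Both sequences held 2 matches to GGAA, and neither held GGAATG, the TEAD core, or TGANTCA, the AP-1 motif, on either strand. RefSeq promoter entries were found for 5 of the 6 genes (8 entries in all), the gene without an entry being ETS1. None of the 8 held GGAATG or TGANTCA, and 7 held GGAA, in up to 6 copies. Over 35116 promoter entries of the same length, GGAATG was in 11.9%, TGANTCA in 6.57% and GGAA in 92.7%. GGAA also counts where it is part of GGAATG. These letters describe the stretch before the start alone. The sequence under the TEAD1 peaks was not analysed here.

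EHF, the epithelial relative of ELF3, showed the opposite layout, with few peaks of high rank. Its window of 142 kb (gene body on chromosome 11, 34643 to 34685 kb, plus strand) held 2 TEAD1 peaks. The stronger lay upstream, at -21.8 kb from the start, at chr11:34620988-34621457, with a width of 470 bp, a score of 307.46 and rank 1975. The other lay in the gene body, 34.1 kb from the start (chr11:34676881-34677299), and scored 151.08, rank 5514. Their percentiles, 96.0 and 88.7, were both above those of all 9 ELF3 peaks, whose highest was 85.6. The nearest TEAD1 peak outside the window was 56.8 kb from the gene (score 104.81). Its window held no YAP peak, and the nearest was a Santa Cruz peak 323.7 kb from the gene.

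ELK3 resembled ELF3 in having many weak peaks, with 1 strong site near its start. Its window of 176 kb (gene body on chromosome 12, 96588 to 96664 kb, plus strand) held 8 TEAD1 peaks, 2 upstream, 3 in the gene body and 3 downstream. The strongest, at chr12:96592564-96592997, lay 4.8 kb past the start and scored 194.75, rank 3806. A peak 43.5 kb from the start scored 75.91, and the other 6 scored between 51.27 and 60.87. The median percentile was 11.1, the lowest of the 6 genes. ELK3 had no YAP peak in its window, and the nearest, a Santa Cruz peak, was 190.0 kb from the gene.

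ETV6 had the longest gene body and the only overlap of TEAD1 with YAP. Its window of 345 kb (gene body on chromosome 12, 11803 to 12048 kb, plus strand) held 5 TEAD1 peaks, 4 of them in the gene body. The strongest, at chr12:11948884-11949218, lay 146.1 kb from the start and scored 121.65. It had a neighbour 2.57 kb away, at 149.0 kb, with a score of 102.69. A peak at 134.9 kb scored 64.02, and no TEAD1 peak lay between it and the gene's start. The peak upstream of the start, at -16.1 kb, scored 57.13.

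The overlap in ETV6 was at 191.8 kb from the start. The TEAD1 peak there (chr12:11994645-11994983, 339 bp, score 85.19) contained an Avruch peak of 162 bp (chr12:11994731-11994892, score 56.25, rank 7996 of 10118). A further Avruch peak near the gene's end, 237.5 kb from the start (chr12:12040437-12040538, score 81.22, rank 1801), was 45.5 kb from any TEAD1 peak. The higher-ranking Avruch peak was therefore the one without TEAD1. No Santa Cruz peak lay in the window, and the nearest was 76.6 kb from the gene.

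**Figure D2:**
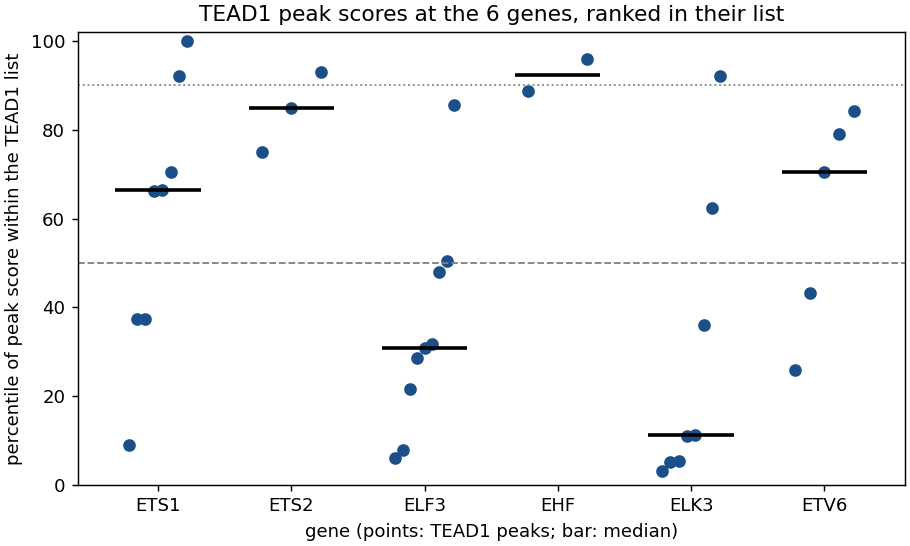
TEAD1 peaks of each gene by the percentile of their score within the TEAD1 list (vertical axis). Points are peaks, bars are medians, and the dashed and dotted lines mark percentiles 50 and 90. All peaks of ETS2 and EHF lie above the dashed line, while 7 of 9 at ELF3 and 6 of 8 at ELK3 lie below it.

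Ordered by median percentile, the genes ran from EHF (92.4) through ETS2 (85.0), ETV6 (70.4), ETS1 (66.3) and ELF3 (30.8) to ELK3 (11.1). Ordered by density, the sequence was ELF3 (8.26 TEAD1 peaks per 100 kb), ELK3 (4.55), ETS1 (3.51), ETS2 (2.50), ETV6 (1.45) and EHF (1.41). ELF3 and ELK3 led the second order and closed the first. The ranges of percentiles overlapped for every pair of neighbours in the first order, as at ETS1 (9.03 to 99.99) and ETV6 (25.8 to 84.3), so their order rests on medians of few peaks. In the upper 10% of the list were 5 of the 35 peaks (14.3%, Wilson 95% interval 6.26 to 29.4, against 10.0% of the list by definition): the 2 strongest of ETS1 and the strongest of ETS2, EHF and ELK3. The upper 1% of the list (0.999% of all peaks) took in the ETS1 site alone. Intervals here and below cover counting error only.

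**Figure D3:**
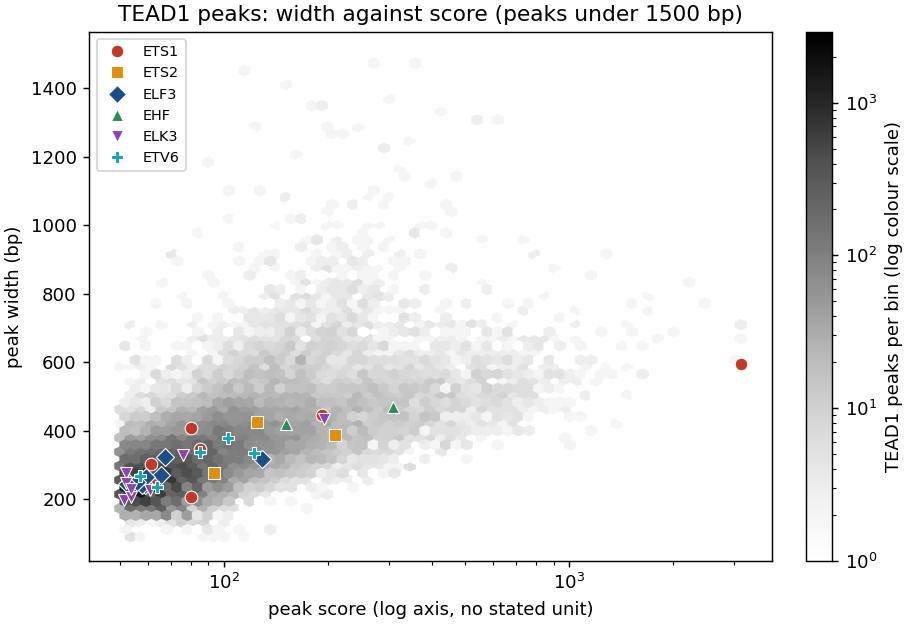
Width in bp against score (log axis) for TEAD1 peaks under 1500 bp wide, with the list as grey bins and the 35 peaks at the 6 genes as coloured symbols. The peaks of the genes lie within the cloud of the list, and the ETS1 site at 596 bp and 3133.14 lies at its right end.

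Wider peaks had higher scores at these genes as in the list. Spearman's rho between width and score was 0.81 over the 35 peaks and 0.66 over all TEAD1 peaks, given as a description across peaks of 1 library. No peak of the 3 lists in these windows was as wide as 1 kb.

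To set the counts in context, the placed chromosomes were cut into adjoining windows of the length of each gene's own window. For ELF3, 2.27% of 27592 such windows held at least 9 TEAD1 peaks. For ELK3, 8.54% held at least 8, and for ETS1 13.6% did in its longer windows. For ETS2, 26.5% held at least 3. For ETV6, 42.4% held at least 5, and for EHF 46.9% held at least 2. ELF3 thus stood in the sparse upper end of this distribution, and ETV6 and EHF near its middle. These windows include stretches without any peak. Among windows with any TEAD1 peak, the shares were 3.6% for ELF3, 11.3% for ELK3 and 16.7% for ETS1. They were 40.2% for ETS2, 47.8% for ETV6 and 66.7% for EHF.

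The height of each gene's strongest peak gave another order. A TEAD1 score as high as that of the strongest ETS1 site was reached in 0.0152% of windows of its length, which is 2 of 13186. Windows whose strongest peak scored 3100, a value shared by 22 TEAD1 peaks of the list, were counted as lower. This share therefore depends on a small difference in score. The strongest EHF peak was matched in 7.37% of windows, that of ETS2 in 10.2%, that of ELK3 in 15.5%, that of ELF3 in 17.3% and that of ETV6 in 40.8%. Since the genes were picked with these values known, the shares describe where each gene lies and support nothing further.

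**Figure D4:**
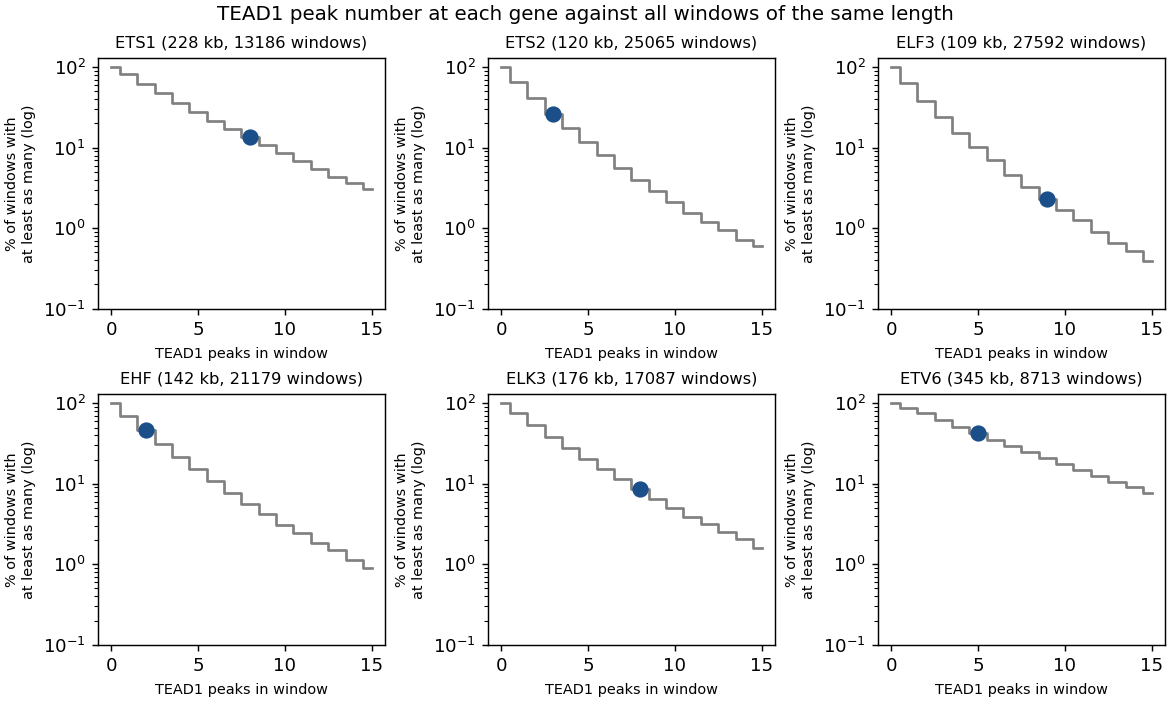
For each gene, the percentage of windows of the same length on the placed chromosomes (log axis) that hold at least the number of TEAD1 peaks on the horizontal axis (grey), with the gene's own window as a blue point. The point of ELF3 (9 peaks, 2.27%) lies lowest and that of EHF (2 peaks, 46.9%) highest.

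Closely spaced TEAD1 peaks were seen at ELF3 alone when a cluster was taken as 3 or more neighbouring peaks, each no more than 10 kb from the next. By this rule 9 of the 35 peaks were clustered (25.7%, Wilson 95% interval 14.2 to 42.1, against 29.3% of all TEAD1 peaks), and all 9 belonged to ELF3. They fell into 3 clusters. The middle one held 4 peaks from 201975926 to 201998860 on chromosome 1 and spanned the gene itself, with scores of 52.91 to 67.30. A cluster of 3 peaks lay downstream (202022803 to 202027423). The third, of 5 peaks, began outside the window and reached into it with 2 (201915465 to 201940093). This call depends on the allowed gap: with 20 kb, 4 peaks of ETS1 and 3 of ETV6 were clustered as well, and with 5 kb the number at ELF3 was 3.

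Overlaps of TEAD1 peaks with YAP peaks were scarce at the 6 genes, with a share near that of the whole TEAD1 list. A YAP peak of either antibody overlapped 1 of the 35 TEAD1 peaks (2.86%, Wilson 95% interval 0.506 to 14.5), against 3.59% of all TEAD1 peaks. That peak was of the Avruch list, which overlapped 3.11% of all TEAD1 peaks. Santa Cruz peaks overlapped 0 of the 35, which allows a share of up to 8.57%, against 1.14% of the list. Within 1 kb of a YAP peak lay 2 of the 35 (5.71%, 1.58 to 18.6), at ETS1 and ETV6, against 6.20%. With so few overlaps, no departure from the lists was detectable at these genes.

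Seen from the YAP lists, 1 of the 3 Avruch peaks overlapped TEAD1, against 19.4% of the Avruch list. The 1 Santa Cruz peak did not, against 30.9% of its list. All 4 YAP peaks lay inside the gene bodies of ETS1 and ETV6, which are the longest of the 6. Of windows as long as those of ETS1 and ETV6, 44.4% and 56.5% held a YAP peak of either antibody. The other 4 genes had none, as had 62.4% of windows of the length of ELK3, 67.9% for EHF, 71.6% for ETS2 and 73.6% for ELF3. The distance from a TEAD1 peak to the nearest YAP peak had a median of 85.9 kb over the 35 peaks and 65.7 kb over the list. Read depth is unknown, so a place without a YAP peak is a place where none was called and not one shown to lack YAP.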

How the data were processed

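ChIP-seq peaks from 3 libraries of H69 cells (TEAD1, YAP Avruch, YAP Santa Cruz) were analysed as deposited. Per the submitters' processing notes, the reads had been aligned to hg19 with Bowtie2. Peaks in the deposited lists are named after the caller MACS, whose version, settings and control were not stated. The score deposited by the authors for a peak has no stated unit, and it was used only within a list. Each list is of 1 library. Read depth is unknown.

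Gene bodies were taken in kb on hg19. A gene's start was the end of its body given by its strand, and other transcript starts were not analysed. A peak belonged to a gene when its centre was within 50 kb. Overlap meant at least 1 bp. A cluster was 3 or more neighbouring TEAD1 peaks, each no more than 10 kb from the next. Adjoining windows for the background began at the first peak of each placed chromosome. Shares have Wilson 95% intervals (statsmodels 0.14.6), and a count of 0 was read against a limit of 3 counts. The functions were tested on simulated data and against bedtools. Python 3.11.15, pandas 2.3.3 and matplotlib 3.10.9 were used.

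The genes, lists and settings were chosen with earlier results of these data known. Named peaks were the strongest TEAD1 peak of each gene, the one nearest its start, TEAD1 peaks in the upper 1% and all YAP peaks. Some others were named after their values were seen. The other ETS genes listed for comparison (22) were not analysed here, because no annotation of build hg19 was used. Promoter sequences and gene order came from RefSeq (GRCh38.p14) and were not joined to hg19 coordinates. Alternatives were other flanks, the upper 50% of scores of each list, joined peaks, other overlap rules and other cluster gaps.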

Additional observations from a re-analysis of the deposited data

How the results depend on the processing

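The number of TEAD1 peaks at the 6 genes followed the window. It was 35 with flanks of 50 kb, 16 in gene bodies alone and 22 with flanks of 20 kb, and 17 when the upper 50% of scores was kept. It was 49 with flanks of 100 kb and 34 with peaks joined over gaps of at most 1 kb. The 4 YAP peaks stayed 4 in gene bodies and with flanks of 20 kb, and were 10 with flanks of 100 kb. The share of TEAD1 peaks with a YAP peak was 2.86% by an overlap of 1 bp. It was 0.0% when 50% of both peaks had to overlap, since the ETV6 Avruch peak is shorter than 50% of its TEAD1 peak. It was also 0.0% (0 of 17) with the upper 50% of scores of each list, TEAD1 and YAP. That setting kept the ETV6 TEAD1 peak (percentile 70.4) and dropped the Avruch peak that overlaps it (percentile 19.3). In gene bodies alone the share was 6.25% (1 of 16), and within 1 kb of a YAP peak 5.71% (2 of 35). With flanks of 100 kb it was 2.04% (1 of 49). All of these rest on 1 or 2 peaks. The ETS1 site ranked 3 by score and 2259 by width. The clustered share was 25.7% with gaps of 10 kb, 8.57% with 5 kb and 45.7% with 20 kb, where all TEAD1 peaks gave 29.3%, 17.2% and 46.8%. No paired analysis was possible because each antibody has 1 library. Unknown depth limits what the absence of a peak shows.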

Other observations

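Between 50 and 100 kb from the gene bodies lay a further 14 TEAD1 and 6 YAP peaks, and none of these YAP peaks overlapped a TEAD1 peak. ETV6 had 4 of the YAP peaks, 3 of the Avruch list (scores 61.15 to 78.75) and 1 of the Santa Cruz list (68.67), and no TEAD1 peak at this distance. ETS2 and ELF3 had 1 Avruch peak each (59.49 and 56.25). ELF3 had 6 of the TEAD1 peaks, among them one with a score of 254.79, above every TEAD1 peak inside its window. ETS2 had 4 (51.15 to 97.12), EHF 2 (104.81 and 120.36) and ELK3 2 (53.26 and 66.39). ETS1 had no peak of any list at this distance.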
